A study of Nannochloropsis oceanica with 18 samples.

Results

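The 5 genes g7214, g7215, g7217, g7218 and g7219 of the marine microalga Nannochloropsis oceanica IMET1 lie close to each other on 1 genome scaffold. Their transcripts moved together over time, both in cultures switched to very low CO2 (VLC) and in cultures kept at high CO2 (HC). The genes were chosen because their numbers are close and each had a lower level in VLC than in HC at 6 h. Their 6 h ratio is therefore a description and not a result. They are 5 of the 9756 genes in the deposited tables. None of the 5 carries a functional annotation there, since each is entered as "nohit". The tables hold a further gene between them, g7216, which was not on the list and is given beside it for several of the comparisons.

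Cultures of this strain were grown in continuous light, washed, moved to fresh medium and kept at 5% CO2 for a short preadaptation, after which the 0 h libraries were taken. They were then bubbled with 0.01% CO2 (VLC, very low carbon) or kept at 5% CO2 (HC, high carbon). Libraries of poly(A) RNA were made from cells of 3, 6, 12 and 24 h, which with 0 h gives 9 groups of 2 libraries, 18 in all. All groups are wild-type cells of the same strain, and every one of them had been through the wash and the 5% CO2 medium. The 2 libraries of a group come from separate cultures picked from a larger number. Each culture column was sampled at every time, so libraries of successive times in a condition can come from the same column, but the labels do not say which column a library is from.

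Nannochloropsis is a unicellular, oil-forming stramenopile alga with a compact nuclear genome. When CO2 becomes scarce, algae of this kind switch on a CO2-concentrating mechanism, a set of transporters and carbonic anhydrases that brings inorganic carbon to Rubisco, and many other transcripts change at the same time. In nuclear genomes of eukaryotes most genes are read from promoters of their own. Neighbours can nonetheless be alike in expression, as copies made by duplication, as genes of 1 pathway, or through shared chromatin and shared promoter sequence. Nothing of this kind can be assigned to genes without an annotation, so the account below rests on position and on transcript level.

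In the coordinates of the IMET1 assembly used for the tables, given here with a first base of 1, the genes lie on scaffold 259. The tables give the scaffold and the ends of each gene but neither the strand nor the exons. Gene g7214 spans bases 14871 to 17001, a length of 2131 bases. Gene g7215 spans bases 17415 to 18671, which is 1257 bases, and starts 413 bases further on. After g7216, at bases 19036 to 20817, comes g7217 at bases 21012 to 22821, 194 bases behind it and 1810 bases long. Gene g7218, at bases 22971 to 23601, is the shortest of the set with 631 bases, and 149 bases separate it from g7217. The last, g7219, lies at bases 28596 to 31400 and is 2805 bases long.

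The first 5 loci of this row, g7214 to g7218 with g7216 included, are therefore separated by gaps of 149 to 413 bases, while 4994 bases lie between g7218 and g7219. From the left end of g7214 to the right end of g7219 the row covers 16530 bases. Over the 9472 pairs of adjacent genes on a common sequence in the tables the median gap was 124 bases. Each of the gaps between the first 5 loci was wider than that. No pair of loci in the tables overlaps. On the left, 93 bases from g7214, lies g7213 at bases 12756 to 14777, and on the right, 8215 bases beyond g7219, lies g7223 at bases 39616 to 41940. Both of these are also "nohit", as are 3042 of the 9756 genes (31.2%) and 57 of the 202 genes of this scaffold. Of the numbers between g7219 and g7223 no gene is analysed here. The libraries do not keep the strand of the RNA, so reads that run past the end of a gene into its neighbour cannot be told apart from the neighbour's own, and this was not tested.

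Transcript levels are given in FPKM, fragments counted per length of transcript and scaled to all mapped fragments of the library, which allows a comparison between genes of different length within a library. Fold changes are on the scale of log2(FPKM + 1) from a limma model of all 18 libraries, with the standard error (SE). A gene counts as called when its Benjamini-Hochberg adjusted p is 0.05 or less and its change is at least 2-fold, among genes whose mean level reached 10 FPKM in 1 or both of the groups compared. All 5 genes passed that minimum in every comparison, and each did so in all 9 groups.

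The course of the 5 genes had the same outline in every case. The group mean was highest in HC at 12 h and lowest in VLC at 24 h for each of them. The ratio of that highest to that lowest mean was 54.0 for g7214, 78.6 for g7215, 73.4 for g7217, 107 for g7218 and 41.0 for g7219. In VLC the level fell to a low at 6 h, was higher again at 12 h and was low at 24 h. In HC the levels at 3 h and 6 h were near or below those of 0 h, except for g7214 at 6 h, those at 12 h stood far above, and those at 24 h were again near or below those of 0 h.

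**Figure D1:**
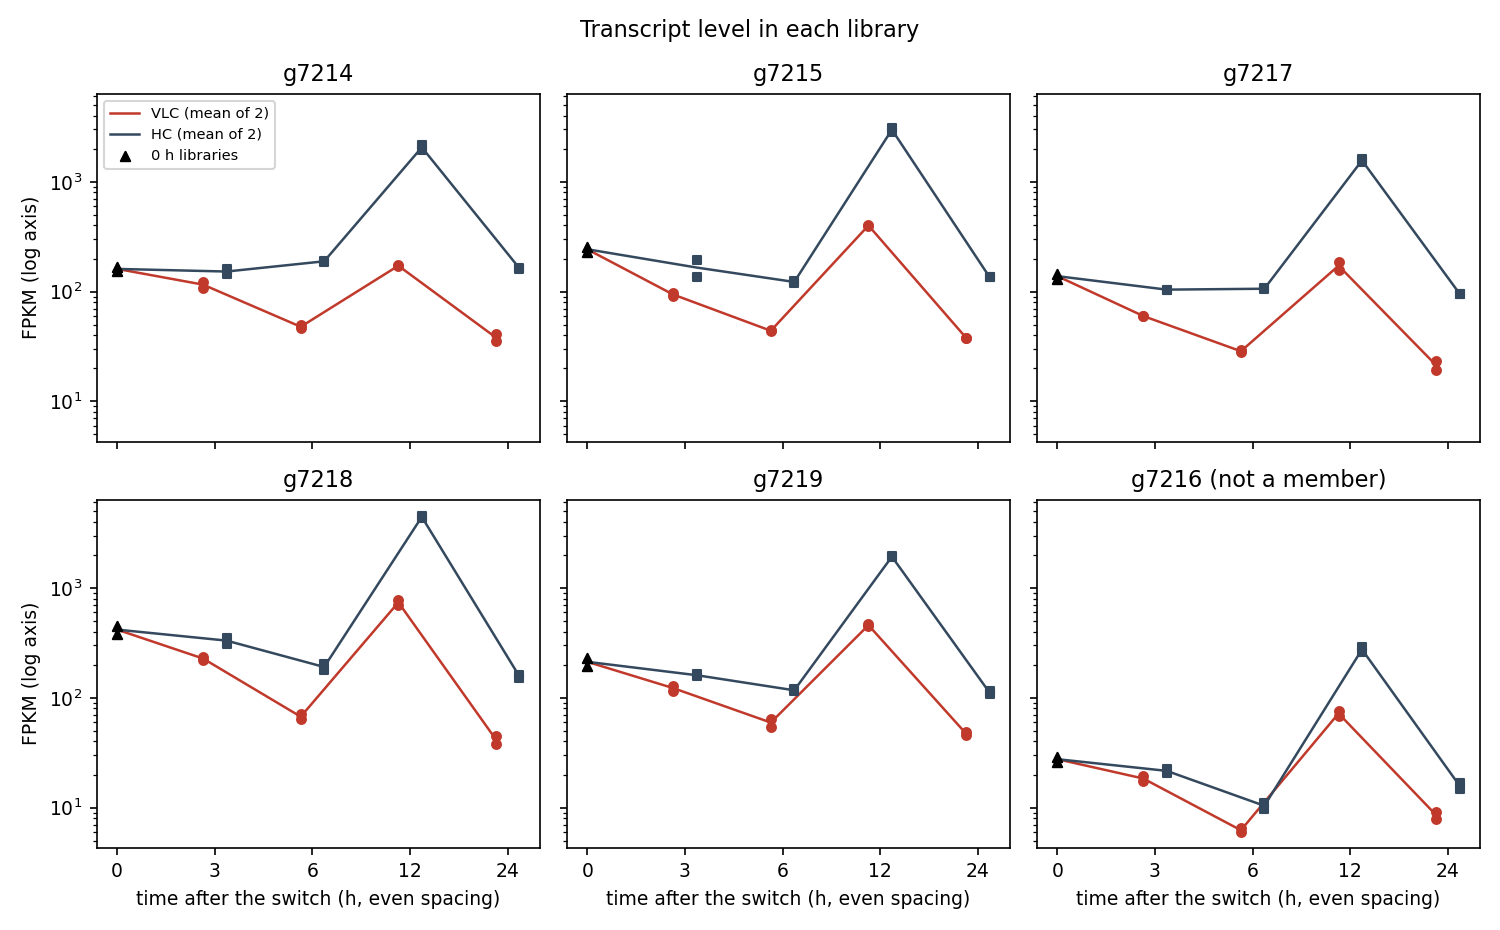
FPKM of g7214, g7215, g7217, g7218, g7219 and the intervening g7216 in each of the 18 libraries (points, log axis) against time after the switch in hours, evenly spaced, with lines through the means of 2 libraries. Red circles are VLC, dark squares are HC and black triangles are the common 0 h libraries. Every gene peaks in HC at 12 h, where g7218 reaches 4567 and 4305 FPKM, and is lowest in VLC, at 24 h for the 5 genes and at 6 h for g7216.

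At 6 h, the time by which the genes were selected, g7214 had 46.4 and 49.2 FPKM in VLC against 192 and 186 FPKM in HC. Gene g7215 had 44.6 and 43.4 FPKM in VLC against 124 and 121 FPKM in HC, and g7217 had 28.0 and 29.3 FPKM in VLC against 108 and 105 FPKM in HC. Gene g7218 had 70.6 and 63.9 FPKM in VLC against 202 and 179 FPKM in HC, while g7219 had 54.6 and 64.4 FPKM in VLC against 115 and 119 FPKM in HC. No VLC library reached an HC library in any of the 5, as the choice of the genes implies. The log2 ratio was −1.96 for g7214, −1.46 for g7215, −1.85 for g7217, −1.49 for g7218 and −0.97 for g7219. Genes g7214 and g7217 were thus the most reduced and g7219, at a ratio of 0.508, lay just short of 2-fold. With the rule used elsewhere 4 of the 5 would be called lower, against 0.252% of the genes tested, from which nothing is read because the genes were chosen by this contrast. Just outside the selection, g7216 had 6.45 and 5.99 FPKM in VLC against 9.76 and 11.0 FPKM in HC, a log2 ratio of −0.66. The neighbour g7213 had a log2 ratio of −0.13 at this time and g7223 one of 0.03.

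The ratios of the same contrast at 3 h, 12 h and 24 h come from libraries that took no part in the choice. Their SE and p do not, since the model estimates each gene's spread from all 18 libraries, those of 6 h included. At 3 h none of the 5 was called in VLC/HC, where 0.268% of 7845 genes tested were called lower. All 5 were lower in VLC with an adjusted p of 0.016 or less by limma. The 0.268% counts only genes that also changed 2-fold. The share of all genes that pass by p alone was not counted, so the 5 are not set against a background there. Gene g7217 had 60.1 and 59.7 FPKM in VLC at 3 h against 104 and 104 FPKM in HC, a log2 change of −0.79 (SE 0.0906, adjusted p = 0.00011). Its libraries of 1 condition were close to each other and those of the other condition far off. Gene g7215 had 90.9 and 97.1 FPKM in VLC against 196 and 135 FPKM in HC, a log2 change of −0.79 (SE 0.122, adjusted p = 0.0013). Here the pair of HC libraries was spread more widely than any other pair of a group for these genes, by 0.53 on the log2 scale, although the groups still did not overlap. The HC libraries at 3 h also differed more from each other over all genes, with a median absolute log2 difference of 0.230, against 0.0547 to 0.105 in the other 8 groups. Without replicate 2 of HC at 3 h, g7215 passed the size threshold at −1.05 (adjusted p = 2.3e-06), and 1 of the 5 genes was called. Without replicate 1 it stood at −0.52 (adjusted p = 0.0012).

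The other genes moved less at 3 h. Gene g7218 had 220.5 and 235 FPKM in VLC against 309 and 354 FPKM in HC, a log2 change of −0.54 (SE 0.105, adjusted p = 0.0056). Gene g7214 had 108 and 123 FPKM in VLC against 144 and 160.1 FPKM in HC, a log2 change of −0.39 (SE 0.0879, adjusted p = 0.011). Gene g7219 had 129 and 116 FPKM in VLC against 156 and 165 FPKM in HC, a log2 change of −0.39 (SE 0.0941, adjusted p = 0.016). In each of the 3 the higher VLC library stayed below the lower HC library, with small gaps. Counted from the lowest log2 change of the 7845 genes tested, g7217 and g7215 held places 48 and 49, g7218 place 203, and g7214 and g7219 places 557 and 580. For g7216 the 3 h change was −0.22 with an adjusted p of 0.17. In a limma fit of the 4 libraries of 3 h alone, none of the 5 genes had an adjusted p of 0.05 or less, with values of 0.066 for g7217, 0.24 for g7215 and g7218, 0.35 for g7219 and 0.36 for g7214. With all other libraries kept, g7214 had an adjusted p of 0.089 without replicate 1 of VLC at 3 h, and g7219 one of 0.14 without replicate 2.

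At 12 h the log2 ratios of the 5 genes were the lowest of the 4 times, and all 5 were called lower in VLC, against 4.36% of 8409 genes tested. Gene g7214 had 170.0 and 174 FPKM in VLC against 2159 and 1956 FPKM in HC, 12.0-fold lower in VLC by the group means, with a log2 change of −3.57 (SE 0.0879, adjusted p = 6.2e-12). Gene g7217 had 158 and 186 FPKM in VLC against 1614 and 1513 FPKM in HC, a log2 change of −3.18 (SE 0.0906, adjusted p = 1.5e-11). Gene g7215 had 398 and 401 FPKM in VLC against 3118 and 2843 FPKM in HC, a log2 change of −2.89 (SE 0.122, adjusted p = 2.5e-10). For these 3 genes every HC library was several times above every VLC library. The gap between conditions exceeded the gap between libraries of a condition by a wide margin.

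Gene g7218 had 774 and 704 FPKM in VLC at 12 h against 4567 and 4305 FPKM in HC, a log2 change of −2.59 (SE 0.105, adjusted p = 1.9e-10). Gene g7219 had 448 and 468 FPKM in VLC against 1908 and 1947 FPKM in HC, a log2 change of −2.07 (SE 0.0941, adjusted p = 4.2e-10). The groups were again far apart in both. Among all genes tested, ordered from the lowest VLC/HC change, g7214 took place 6, g7217 place 8, g7215 place 11, g7218 place 19 and g7219 place 76. Gene g7216 had 68.1 and 75.9 FPKM in VLC against 290.4 and 260.4 FPKM in HC, and its log2 change of −1.92 (SE 0.106, adjusted p = 1.8e-09) was called and stood at place 105.

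The scale of the 12 h comparison was shifted, since the median gene had a VLC/HC log2 ratio of 0.58 there. FPKM is a share of the library, and the shift was therefore also subtracted. Relative to the median gene the 5 genes ran from −4.16 for g7214 to −2.66 for g7219, and all 5 were called, against 11.4% of the genes tested called lower on this scale.

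At 24 h all 5 genes were again called lower in VLC, against 5.95% of 8220 genes tested. Gene g7214 had 40.8 and 35.4 FPKM in VLC against 164 and 161 FPKM in HC, a log2 change of −2.07 (SE 0.0879, adjusted p = 1.2e-10). Gene g7217 had 23.1 and 19.5 FPKM in VLC against 96.0 and 95.1 FPKM in HC, a log2 change of −2.12 (SE 0.0906, adjusted p = 1.3e-10). Gene g7218 had 44.9 and 38.2 FPKM in VLC against 160.3 and 153 FPKM in HC, a log2 change of −1.89 (SE 0.105, adjusted p = 2e-09). The groups of these 3 genes were well separated, with HC libraries that lay almost on each other.

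Gene g7215 had 38.0 and 37.9 FPKM in VLC at 24 h against 136 and 135 FPKM in HC, a log2 change of −1.81 (SE 0.122, adjusted p = 1.5e-08). Gene g7219 had 48.6 and 45.6 FPKM in VLC against 115 and 108 FPKM in HC, a log2 change of −1.23 (SE 0.0941, adjusted p = 6e-08). It was the least reduced of the 5, as it was at 12 h. The places from the lowest change were 73 for g7217, 78 for g7214, 117 for g7218, 124 for g7215 and 318 for g7219. Gene g7216 had 7.92 and 9.14 FPKM in VLC against 14.9 and 16.7 FPKM in HC, and its log2 change of −0.82 (adjusted p = 1.1e-05) did not reach 2-fold.

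**Figure D2:**
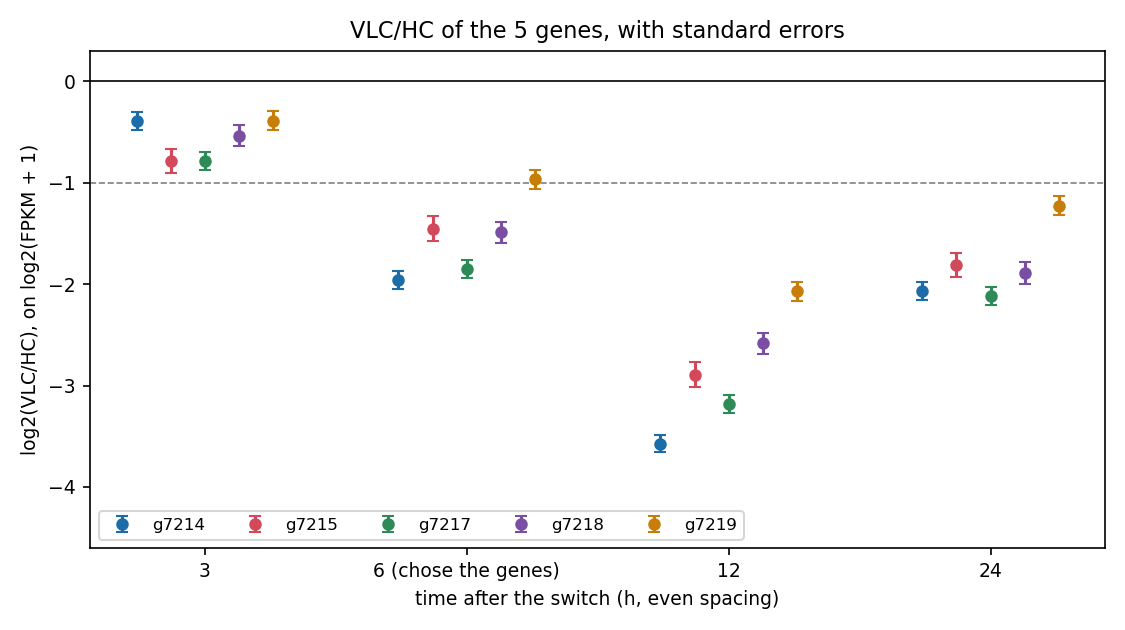
Log2(VLC/HC) of g7214, g7215, g7217, g7218 and g7219 at 3, 6, 12 and 24 h (evenly spaced), on the scale of log2(FPKM + 1), with bars of 1 SE from the limma model. The dashed line marks a 2-fold reduction in VLC. The 6 h values chose the genes, the 3 h values all lie above the line, and the values at 12 h (−3.57 to −2.07) and 24 h (−2.12 to −1.23) all lie below it.

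The ratio was closer to 1 at 24 h than at 12 h for all 5 genes. The test of that difference, log2(VLC/HC) at 24 h minus that at 12 h, gave 1.50 for g7214 (SE 0.124, adjusted p = 2.5e-07), 1.08 for g7215 (SE 0.172, adjusted p = 8.5e-05) and 1.06 for g7217 (SE 0.128, adjusted p = 7.6e-06). It gave 0.69 for g7218 (SE 0.149, adjusted p = 0.00093) and 0.84 for g7219 (SE 0.133, adjusted p = 7.9e-05), which passed the p threshold but not 2-fold. Hence 3 of the 5 were called higher in this difference, against 6.14% of 9109 genes tested. Without replicate 1 of VLC at 12 h, or without replicate 1 of VLC at 24 h, g7217 stood at 0.94 and 2 were called. The median gene moved by −0.58, and relative to it all 5 were called, with values of 1.27 to 2.08, against 12.9% of the genes.

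Within HC the 5 genes reached by far their highest levels at 12 h. At 12 h against 0 h, all 5 genes were called higher in HC, as were 22.4% of 8315 genes tested, or 30.1% relative to the median gene, whose own log2 change was −0.52. Gene g7218 had 4567 and 4305 FPKM in HC at 12 h against 452 and 382 FPKM at 0 h, a log2 change of 3.41 (SE 0.105, adjusted p = 1.1e-12). Gene g7214 rose by 3.67 (SE 0.0879, adjusted p = 1.6e-13), with 167 and 154 FPKM at 0 h. Gene g7215, at 256 and 229 FPKM at 0 h, rose by 3.61 (SE 0.122, adjusted p = 2.5e-12).

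Gene g7217 had 145 and 131 FPKM at 0 h and rose by 3.49 in HC at 12 h (SE 0.0906, adjusted p = 2.4e-13). Gene g7219, with 232 and 193 FPKM at 0 h, rose by 3.18 (SE 0.0941, adjusted p = 8.3e-13). The 5 rises lay within 0.5 of each other on the log2 scale, from 9.07-fold for g7219 to 12.8-fold for g7214 by the group means. Relative to the median gene they were 3.70 to 4.19. These values share the HC libraries of 12 h with the VLC/HC ratio at that time, so the 2 sets of values are not independent. The intervening g7216 was called higher as well, at 3.27 (SE 0.106, adjusted p = 1.8e-12), and so were most flanking genes, given below.

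In HC the high level did not last. At 24 h against 12 h in HC all 5 were called lower, as were 20.3% of 8649 genes tested, with log2 changes of −3.65 for g7214, −4.02 for g7217, −4.10 for g7219, −4.45 for g7215 and −4.82 for g7218, the last being place 10 from the lowest. The median gene moved by 0.67 in this comparison, and relative to it the log2 changes were −4.32 for g7214 to −5.49 for g7218. At 24 h against 0 h in HC only g7218 was called lower, where 11.3% of 8224 genes were. Its log2 change was −1.41 (SE 0.105, adjusted p = 3.3e-08), from 160.3 and 153 FPKM at 24 h against 452 and 382 FPKM at 0 h. Gene g7214 was at 0.02 (adjusted p = 0.86), with 24 h libraries that lay inside the range of the 0 h libraries, and the other 3 were at −0.53 to −0.92. Without replicate 2 of 0 h, g7219 was called too, at −1.05.

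Early in HC the genes changed little. At 3 h against 0 h in HC none of the 5 was called, where 3.71% of 7962 genes were called lower. Of the 5 genes, 4 had negative log2 changes of −0.33 to −0.57 with adjusted p of 0.015 or less by limma. The 3.71% also requires a 2-fold change, and the share of all genes by p alone was not counted. Gene g7214 was at −0.08 (adjusted p = 0.45), and its HC libraries at 3 h overlapped those of 0 h. In a fit of only these groups, 3 of the 4 lost that p, with 0.057 for g7215, 0.064 for g7219 and 0.12 for g7218. Gene g7215 was at −0.31 without replicate 2 of HC at 3 h and at −0.84 without replicate 1, and g7218 was at −0.21 without replicate 1 of 0 h (adjusted p = 0.16) and at −0.23 without replicate 1 of HC at 3 h (adjusted p = 0.1).

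In VLC the 5 genes were lower at 3 h than at 0 h, at or above the 0 h level at 12 h, and lower again at 24 h. At 3 h against 0 h in VLC, g7215 and g7217 were called lower, with log2 changes of −1.36 (SE 0.122, adjusted p = 4.5e-07) and −1.19 (SE 0.0906, adjusted p = 9e-08), against 4.87% of 7990 genes tested. Gene g7218 stood at −0.87, g7219 at −0.79 and g7214 at −0.47, each with an adjusted p of 0.00034 or less but under 2-fold. At 12 h against 0 h in VLC, only g7219 was called higher, at 1.11 (SE 0.0941, adjusted p = 5.7e-08), with 448 and 468 FPKM at 12 h against 232 and 193 FPKM at 0 h. By comparison 28.8% of 8767 genes were called higher there. Gene g7218 was at 0.83, g7215 at 0.72, g7217 at 0.31 and g7214 at 0.10. The median gene was at 0.15, and relative to it none of the 5 was called, against 25.6% of the genes, with limma values of −0.05 for g7214 to 0.96 for g7219. Without replicate 2 of 0 h, g7219 fell short of 2-fold at 0.98. The intervening g7216 was called higher in VLC at 12 h against 0 h, at 1.35 (adjusted p = 2.4e-08).

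The last step in VLC was downward for all 5. At 24 h against 12 h in VLC they were called lower, as were 20.5% of 8924 genes tested, with log2 changes from −2.15 for g7214 to −4.12 for g7218. Relative to the median gene, at 0.12, these were −2.27 to −4.24. At 24 h against 0 h in VLC all 5 were called lower, against 14.8% of 8436 genes tested. The changes were −2.05 for g7214 (SE 0.0879, adjusted p = 5.2e-11), −2.15 for g7219 (SE 0.0941, adjusted p = 6.6e-11), −2.64 for g7215 (SE 0.122, adjusted p = 1.1e-10), −2.65 for g7217 (SE 0.0906, adjusted p = 5.4e-12) and −3.30 for g7218 (SE 0.105, adjusted p = 3e-12). For g7218 the group mean at 24 h in VLC was 10.1-fold under that at 0 h. The VLC and HC courses share the 0 h libraries, so the changes in the 2 conditions are set side by side and their likeness is not used as evidence.

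Set against the other transcripts of a library, the 5 genes moved between the top and the middle of the range. In HC at 12 h they held ranks 10 to 36 by FPKM among the 9756 genes, and together they made up 2.08% and 1.96% of the summed FPKM of the 2 libraries. In VLC at 12 h they held ranks 68 to 682 and made up 0.308% and 0.305%. At 24 h the ranks were 2696 to 6054 in VLC against 597 to 1122 in HC, with shares of 0.0346% and 0.0309% in VLC against 0.111% and 0.108% in HC. At 6 h, the time that chose them, the ranks were 1670 to 4343 in VLC against 462 to 1036 in HC, and at 3 h they were 483 to 2133 in VLC against 313 to 1146 in HC. At 0 h the ranks were 249 to 844. The summed FPKM of a library ranged from 563972 to 720860.

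Among the 5 genes the top and the bottom of the order were mostly held by the same gene, while the places between changed from group to group. By mean FPKM, g7218 was the highest in 7 of the 9 groups, and g7217 the lowest in 8 of the 9. The exceptions were VLC at 24 h, where g7219 had the highest mean with 48.6 and 45.6 FPKM against 44.9 and 38.2 FPKM for g7218, and HC at 24 h, where g7214 was the highest. In VLC at 12 h g7214 was the lowest, with 170.0 and 174 FPKM inside the range of g7217 at 158 and 186 FPKM. In HC at 12 h the order was g7218, g7215, g7214, g7219 and g7217, with no overlap between the libraries of neighbours in that order. In HC at 6 h g7214 came next to g7218 and overlapped it, with 192 and 186 FPKM against 202 and 179 FPKM. FPKM is set per length of transcript, but the tables do not give that length, and g7218 has the shortest locus.

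Across all 18 libraries the log2 levels of the 10 pairs of these genes had Pearson correlations of 0.929 to 0.989, with a median of 0.975. The closest pair was g7215 with g7219, and the least close g7214 with g7219. Without the 4 libraries of 6 h, the range over the remaining 14 was 0.937 to 0.992. As a background, 9183 adjacent gene pairs of the tables had a median correlation of 0.323 over the 18 libraries, and 5% of them exceeded 0.936. Over the 14 libraries without 6 h that median was 0.353, and 5% exceeded 0.948. In both sets the least close pair of the 5 genes lay under the level that 5% exceeded. Gene g7216 correlated with the 5 genes at 0.883 to 0.982. These are descriptions over libraries that share groups and sequencing, and the HC peak at 12 h weighs in all of them.

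The nearest genes on either side of the row differed at 12 h. To the left, g7213, 93 bases from g7214, had mean levels of 14.3 FPKM in VLC and 12.1 FPKM in HC at 12 h, a log2 change of 0.23 (SE 0.230, adjusted p = 0.37). To the right, g7223 had 82.0 FPKM in VLC and 167 FPKM in HC, a log2 change of −1.02 (SE 0.136, adjusted p = 8.9e-06), which was called. With g7214 to g7219 and the intervening g7216, g7223 made up 7 genes called lower in VLC that are consecutive in the tables. The tables hold no gene between g7219 and g7223, which lie 8215 bases apart. This was the longest such run in the tables at 12 h, and the next in length held 4 genes. Over 9061 overlapping windows of 6 consecutive genes, 4 had at least 5 called lower at 12 h, and all 4 touched this row. These 4 are shifts along the same run and not separate places. At 24 h 2 windows had at least 5 called lower, of which 1 touched the row. The row itself had 5 of 6 because g7216 was not called. The longest run called lower at that time held 4 genes, g7283 to g7286, and lay outside the row. Runs and windows were counted without subtracting the shift of the median gene. The counts for this row describe a row that was picked by its values at 6 h.

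Around the row, 4 flanking genes on the left, all that the tables hold on that side, and 5 on the right were looked at in the same way. At 12 h the VLC/HC log2 changes of these 9 ran from −2.36 to 0.94. None was called higher, against 27.65% of all genes tested, and 4 were called lower, against 4.36%. Besides g7223 these were g7210, at −1.16, and the adjoining pair g7228 and g7229, at −2.36 and −2.34, both annotated as beta-lactamase, a family of hydrolases best known from bacteria that break down beta-lactam antibiotics. At 24 h none of the 8 flanking genes tested was called lower. Of all genes tested 5.95% were, so none of 8 is close to that share. At that time g7228 had 87.0 FPKM in VLC and 58.4 FPKM in HC, a log2 change of 0.56, and g7229 one of 0.43, so that the pair no longer ran with the row. Gene g7225, annotated as a carboxyl-terminal protease, was called higher at 24 h at 1.08, though not relative to the median gene, where it was at 0.98. The rise in HC at 12 h against 0 h was not particular to the row. There 7 of the 9 flanking genes were called higher, against 22.4% of all genes tested. Log2 changes of the 9 ran from 0.28 to 2.98. Relative to the median gene 8 were called higher, against 30.1%. Genes g7210, g7225, g7228 and g7229 are named because of their values.

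**Figure D3:**
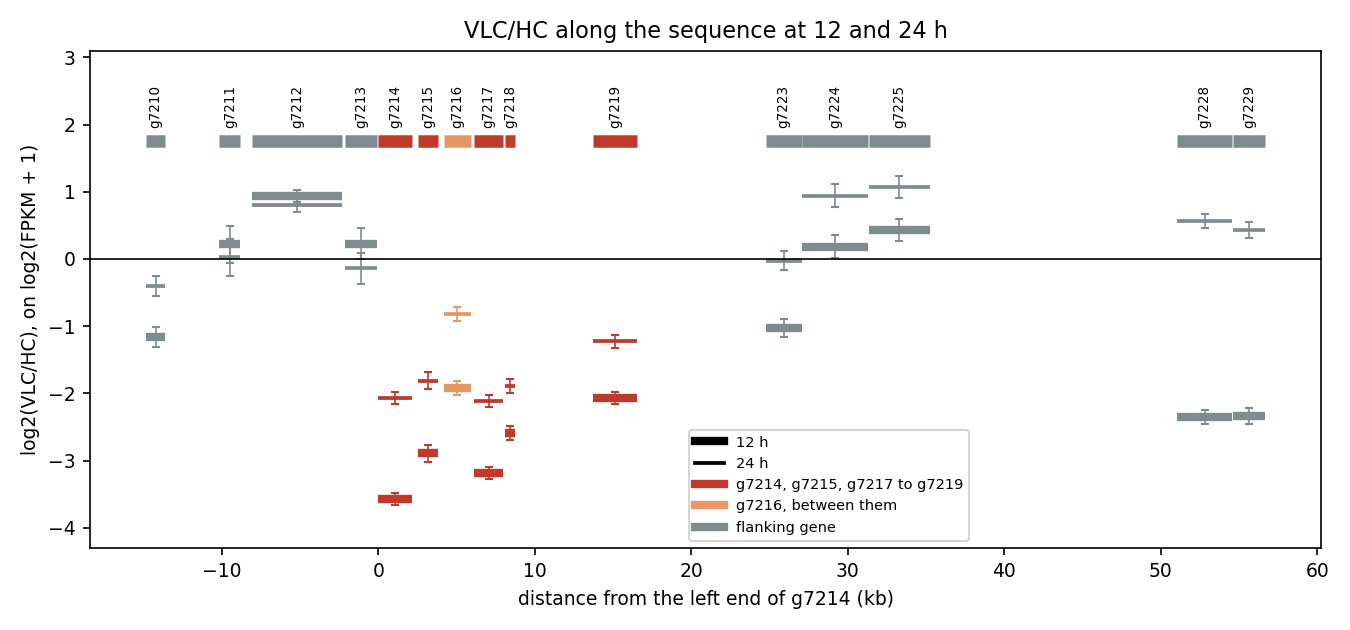
Log2(VLC/HC) at 12 h (thick bars) and 24 h (thin bars) for g7210 to g7229, drawn over the extent of each gene and placed by distance in kb from the left end of g7214, with whiskers of 1 SE. The boxes at the top mark the genes. From g7214 to g7219 every 12 h bar lies at −1.92 or lower and every 24 h bar below 0, whereas at 24 h the flanking genes lie between −0.40 and 1.08.

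Elsewhere in the genome, the genes most like each of the 5 were looked up by Pearson correlation over the 18 libraries among 9598 genes, 3 for each. Gene g1790, annotated as a MutL DNA mismatch repair protein, was among the 3 of all 5 genes, with r of 0.933 to 0.985. MutL proteins act with MutS in the repair of mismatches left by DNA replication. It was a low transcript throughout, with 6.09 and 6.87 FPKM in VLC at 12 h against 25.1 and 24.1 FPKM in HC, a log2 change of −1.78 (SE 0.212, adjusted p = 3.2e-06), and at most 4.05 FPKM in the libraries of the other times. Its groups at 12 h were well apart.

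Gene g9904, annotated as similar to a beta-1,3-glucosyltransferase, an enzyme that in animals extends sugars attached to proteins, was listed for 3 of the 5. It had 34.9 and 37.8 FPKM in VLC at 12 h against 164 and 146 FPKM in HC, a log2 change of −2.06 (SE 0.139, adjusted p = 1.1e-08). Its change at 24 h, −1.35 (adjusted p = 1.2e-06), was called as well. Its "nohit" neighbour g9905, listed for g7218, had 608 and 605 FPKM in VLC at 12 h against 3143 and 2945 FPKM in HC, values inside the range of the 5 genes. This pair lay within another of the longer runs called lower at 12 h, the 4 genes from g9902 to g9907 that are consecutive in the tables.

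Gene g5290, a calcineurin-like phosphoesterase by annotation, a member of a broad family of metal-dependent phosphatases, was listed for 2 of the 5. It was called lower in VLC at 12 h at −2.14 (adjusted p = 1.7e-09), but at 24 h its change was −0.42 (adjusted p = 0.0065). The remaining genes on the list were g6292 and g2488, both "nohit", the hypothetical protein g929, and g7216. All 8 of these genes were called lower in VLC at 12 h, with log2 changes of −2.35 to −1.78, but at 24 h g2488, g9904 and g9905 were the only ones called among the 5 with enough FPKM to be tested. Since they were looked up by likeness over these libraries, 12 h included, their values are a description.

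**Figure D4:**
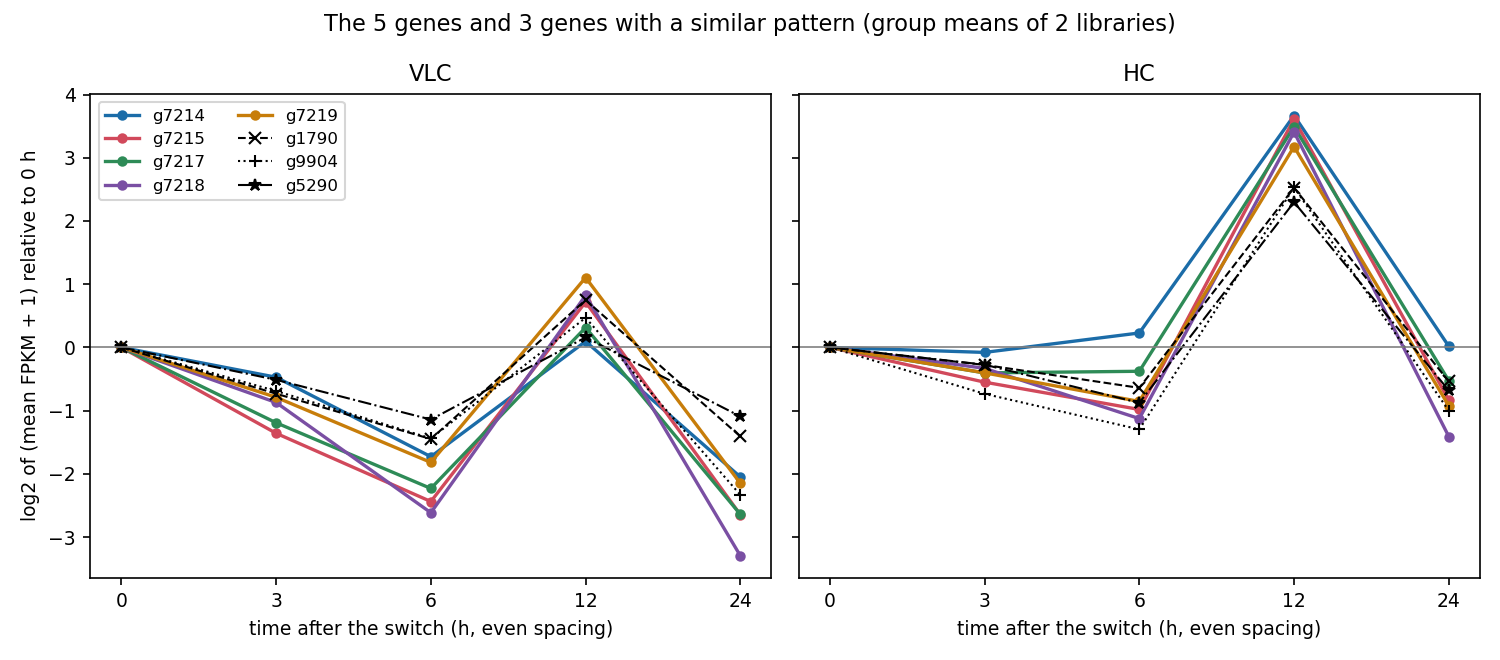
Mean level of g7214, g7215, g7217, g7218 and g7219 (coloured) and of g1790, g9904 and g5290 (black) relative to 0 h, as log2 of mean FPKM + 1, against time after the switch (evenly spaced), with VLC on the left and HC on the right. Each point is the mean of 2 libraries. In HC at 12 h the 5 genes lie at 3.18 to 3.67 and the 3 others lower, and all 8 are below the 0 h line in VLC at 24 h.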

How the data were processed

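Poly(A) RNA from 18 libraries, 2 in each of 9 groups, was sequenced by the study. The authors aligned the paired reads to the IMET1 genome with TopHat2 2.0.4, dropped those with several mapping positions and deposited FPKM values per gene from Cufflinks (version 2.0.2 in the submitters' processing notes). FPKM is scaled to the library and to transcript length, and the deposited tables hold neither counts nor depth. The reads per library listed by the study were used only to scale low values in a search for steps of whole reads. Counting error was not estimated, and every value is a share of its library. Whole reads could not be recovered from the steps of low values, since 450 of 741 values of 68 low genes (60.7%) lay within 0.1 of a whole multiple, and no count test was run.

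FPKM values were taken as log2(FPKM + 1) and fitted with limma 3.58.1 (R 4.3.3), with the variance allowed to follow the mean level and 1 coefficient for each of the 9 groups, over 9665 genes with 9 residual degrees of freedom. Benjamini-Hochberg adjustment was made within each comparison over all genes that averaged 10 FPKM or more in a group compared (any of the 4 for the difference between 24 h and 12 h). Calls needed a 2-fold change and an adjusted p no higher than 0.05. For values "relative to the median gene", the middle log2 change of the genes tested was subtracted first. Python 3.11.15, numpy 2.4.6 and pandas 2.3.3 were used for the tables and matplotlib 3.10.9 for the figures. Tested on simulated data for VLC/HC at 12 h over 7422 genes, the model called 95 of 100 genes changed 2.5-fold, 99 of 100 changed 4-fold and 0 unchanged genes. The simulated noise was normal on the log2 scale, and no shift of the median gene was put in. False calls under a shift like that of the real 12 h comparison were therefore not tested.

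The 5 genes, the comparisons and the lists were chosen with earlier results of these data known. VLC/HC at 6 h, by which the genes were selected, was fitted over all genes for the background share only, and no p is given for it. Named beside them were the gene between them, the nearest gene on either side of the row, and for each of the 5 the 3 genes with the highest correlation among those with mean FPKM of at least 1. Starts were converted to count from 1. Replicate numbers were taken from the labels. Over the 36 pairs of groups, the deviations of equally numbered libraries correlated at −0.20 to 0.16, over 0.1 in 1 pair. This shows no strong shared deviation but cannot tell whether equal numbers stand for the same column. The numbers were therefore not taken as pairs in the main fit. The alternatives were a pseudocount of 0.1, an FPKM minimum of 1 or none, the median-gene scale, a fit of only the groups compared, a replicate block, no variance trend, and leaving out each library in turn. The reference table given held 160 organelle genes, of which 0 matched, and no sequence of the 5 genes is shown.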

Additional observations from a re-analysis of the deposited data

Results flagged for a closer look

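The log2 ratio of VLC to HC differed between 24 h and 12 h by the test of the difference itself (limma, Benjamini-Hochberg adjustment over 9109 genes), with libraries of each time that did not overlap between VLC and HC. The value at 24 h minus that at 12 h was 1.50 for g7214 (adjusted p = 2.5e-07), 1.08 for g7215 (adjusted p = 8.5e-05) and 1.06 for g7217 (adjusted p = 7.6e-06). It was 0.69 for g7218 (adjusted p = 0.00093) and 0.84 for g7219 (adjusted p = 7.9e-05). Gene g7217 fell short of 2-fold, at 0.94, without replicate 1 of VLC at 12 h or at 24 h. All 5 were lower in VLC at both times, and less so at 24 h. The median gene moved by −0.58, and relative to it the 5 values were 1.27 to 2.08, each called.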

How the results depend on the processing

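Of 680 values of single genes under alternatives in 12 comparisons, 670 kept their direction and their call (adjusted p and 2-fold together), 4 lost the call, 4 gained it and 2 changed sign, and 7 of 136 counts of called genes differed from the count reported. The adjusted p alone passed 0.05 in 15 values that were at or under it in the report, 12 of them in the comparisons at 3 h. All 5 genes stayed called in VLC/HC at 12 h and 24 h, in HC at 12 h against 0 h, in VLC at 24 h against 0 h and in both comparisons of 24 h with 12 h under every alternative. With 1 library left out, the count ranged from 0 to 1 for VLC/HC at 3 h (1 without replicate 2 of HC at 3 h), from 0 to 1 for VLC at 12 h against 0 h (0 without replicate 2 of 0 h), from 1 to 2 for HC at 24 h against 0 h (2 without the same library) and from 2 to 3 for the difference between 24 h and 12 h, where g7217 fell to 0.94 without replicate 1 of VLC at 12 h or of VLC at 24 h. The median log2 ratio of the 5 genes at 6 h ranged from −1.57 to −1.44. Gene g7214 in HC at 24 h against 0 h ranged from −0.0388 to 0.0758, with a change of sign without replicate 2 of 0 h. Relative to the median gene, 0 genes were called in VLC at 12 h against 0 h, where g7214 changed sign to −0.0488 (adjusted p = 0.61), and 5 in the difference between 24 h and 12 h, where g7218 was at 1.27 and g7219 at 1.42. With the replicate block the count was 5 in VLC/HC at 12 h, and the block changed no count of called genes. Over all genes, VLC/HC at 3 h had 76 called genes (55 higher, 21 lower), and 157 (76 higher, 81 lower) without replicate 2 of HC at 3 h. VLC/HC at 12 h had 2692 (2325 higher, 367 lower), and 1706 (744 higher, 962 lower) relative to the median gene. The difference between 24 h and 12 h had 2861 called genes and 1601 on that scale. The causes were not tested. The limits that depth sets were not estimated, since the tables hold FPKM only.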
